A study of Mus musculus with 6 samples.

Results

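The 8 genes described here encode 6 caspases (Casp1, Casp2, Casp4, Casp6, Casp8 and Casp9), Apaf1 and Cflar, chosen by name from the 46983 genes of the deposited count tables. They were measured in naive CD4 T cells of male mice, sorted from lymph nodes as live TCRb+ CD4+ CD62L+ CD44- cells, by sequencing of total RNA after removal of ribosomal RNA. There were 2 control libraries from Cmtr1 fl/fl mice negative for CD4cre and 4 libraries from Cmtr1 fl/fl mice positive for CD4cre, labelled Cmtr1 cKO, so both groups carry the floxed Cmtr1 alleles and differ by the transgene. CD4cre is known to recombine floxed alleles in the T lineage from the thymus on. When, and how fully, Cmtr1 was deleted in these cells was not measured here. No age is given in the labels. Nor is it stated that each library is a separate mouse, and the spread behind the p-values may therefore be technical. All means below are given ± SD with n = 2 controls and n = 4 Cmtr1 cKO.

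Caspases are cysteine proteases made as inactive precursors. Initiator caspases are activated on assembled platforms: caspase-8 at death receptors with the adaptor FADD, caspase-9 on the apoptosome that APAF1 forms with cytochrome c, and caspase-2 on the PIDDosome. Caspase-6 is one of the executioners that cleave cellular proteins, while caspase-1 and caspase-4 (often called caspase-11 in mice) are inflammatory caspases that open gasdermin D pores. Cflar encodes c-FLIP, a relative of caspase-8 without protease activity that controls whether caspase-8 is activated. In T cells caspase-8 and c-FLIP are known both for death receptor signalling and for survival, since together they restrain RIPK3-dependent necroptosis. CMTR1 adds a ribose methyl group to the nucleotide next to the cap of an RNA, the one at which transcription starts.

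Libraries held 9513874 to 11949838 gene counts. Uniquely mapped reads that met no annotated exon on the counted strand are called outside-exon reads here. They made up 34.0% and 37.2% in the controls and 38.0% to 52.3% in Cmtr1 cKO. Cmtr1 cKO 4 lay nearest to the controls. The share also takes in reads that lie on an exon but on its opposite strand. Cmtr1 cKO 3 had the most opposite-strand gene counts of any library, 1707028. Levels are given in CPM, counts relative to the library size after TMM scaling. Cmtr1 itself stood at 11.2 and 11.4 CPM in control 1 and 2, and Cmtr1 cKO 1 to 4 had 16.0, 19.8, 14.6 and 7.57 CPM. Its log2 fold change was 0.36 ± 0.31 (SE, edgeR adjusted p = 0.461). Cmtr1 cKO 1, 2 and 3 lay above both controls and Cmtr1 cKO 4 below them, so the gene's read count was not lower across the libraries labelled Cmtr1 cKO. The labels do not name the deleted exon, and reads from the exons that remain would still be counted where they fall in 1 gene. Of 9720 Cmtr1 exon bases in GENCODE vM21, 3525 (36.3%) are shared on the same strand with Gm28043 and Gm28052. Reads there would not be counted for Cmtr1 if that annotation stood behind the counts. This level is therefore no measure of the deletion. Directions below are those of the libraries as labelled. The 8 markers of naive CD4 T cells, among them Cd4 and Ccr7, summed to 5523 and 5706 CPM in the controls and to 5113 to 5988 CPM in Cmtr1 cKO. Of these 8, 1 was called lower and 0 higher: Ccr7, a homing receptor, went from 464 to 361 CPM in group means (log2 fold change -0.36, edgeR adjusted p = 0.0433). Summed markers of CD8 T cells ran from 23.6 to 28.7 CPM in the controls and from 17.0 to 21.3 CPM in Cmtr1 cKO, those of NK cells from 7.34 to 10.4 and from 4.34 to 6.28 CPM, and those of B cells from 29.7 to 39.7 and from 19.9 to 40.6 CPM. Those of activated T cells ran from 146 to 160.3 and from 119 to 174 CPM, of which Cd44, a marker of the sort, was called lower (40.4 against 28.6 CPM, log2 fold change -0.50, adjusted p = 0.016), and those of regulatory T cells from 77.0 to 115 and from 82.0 to 112 CPM. The CD8 and NK sums, Ccr7 and Cd44 separated the groups. So did Cd3e and Trac, lower in Cmtr1 cKO, and Cd4 and Lef1, higher, none of them called. Csf1r, a myeloid marker with too few reads to be tested, also separated the groups and was lower in Cmtr1 cKO. Eomes made up most of the NK sum, with means of 6.74 CPM in the controls and 3.91 CPM in Cmtr1 cKO. Klrk1 and Gzma also had lower means in Cmtr1 cKO, and Ncr1, Klrb1c and Klre1 higher ones, all on few reads. Groups without overlap were found for 39% of all tested genes. The part of these markers in the results below was not tested.

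All 8 genes passed the filter on low counts. Casp8 was higher and Casp6 lower in Cmtr1 cKO, and the other 6 did not pass the test (smallest adjusted p among them 0.317, Casp9). Over the 12748 genes tested, 11.4% were called in either direction, 4.66% higher and 6.77% lower, at an adjusted p under 0.05 (quasi-likelihood F-test of edgeR, Benjamini-Hochberg). A count of 2 in 8 genes is therefore no result about the group. Of the 6 genes not called, 0 had an unadjusted p under 0.05 and 0 were called by DESeq2. The median log2 fold change of the 8 genes was 0.03, against -0.00047 over all genes tested. In bulk RNA, fewer cells of a type and less RNA per cell cannot be told apart.

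**Figure D1:**
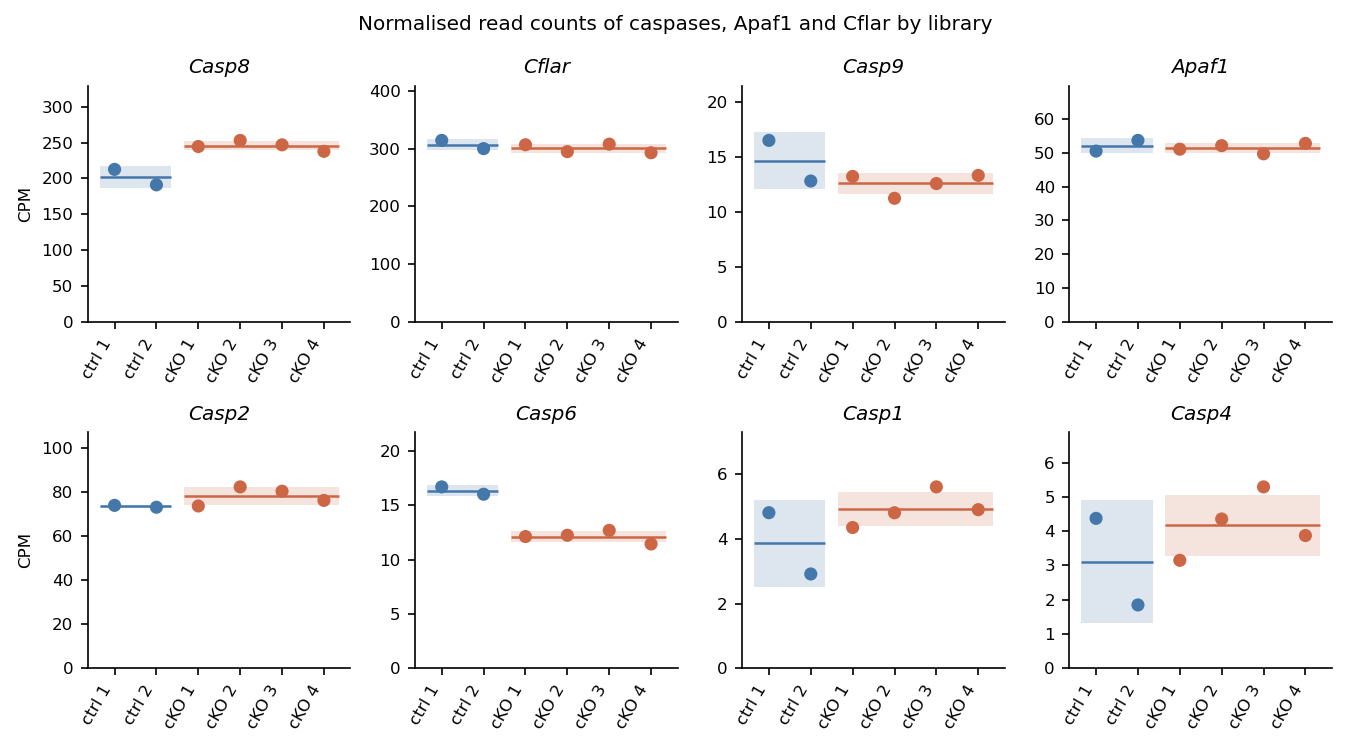
Normalised read counts (CPM, y axis from 0) of the 8 genes in each of the 6 libraries. Points are libraries (blue, control; orange, Cmtr1 cKO), lines are group means and bands are ± SD. The groups separate for Casp8, at 191 and 213 CPM against 238 to 253 CPM, and for Casp6, at 16.0 and 16.7 CPM against 11.4 to 12.7 CPM. Of all tested genes, 39% had groups without overlap.

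The bases around the annotated starts of 4 of these genes are shown because the start base is the one CMTR1 would methylate. They are RefSeq windows on GRCm38.p6, each with 40 bases before the start and the first 20 transcribed bases, 5′ to 3′ on the gene's strand, with the start base in capitals. Casp8 and Casp6 are the genes that passed the test, Cflar is the neighbour and regulator of Casp8, and Casp1 is the one whose start opens with a pyrimidine run.
Casp8 (chr1:58802462-58802521, plus strand): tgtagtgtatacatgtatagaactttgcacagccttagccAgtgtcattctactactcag
Cflar (chr1:58711451-58711510, plus strand): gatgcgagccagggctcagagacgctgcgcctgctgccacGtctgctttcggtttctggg
Casp6 (chr3:129901375-129901434, plus strand): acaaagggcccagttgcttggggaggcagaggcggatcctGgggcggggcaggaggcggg
Casp1 (chr9:5298477-5298536, plus strand): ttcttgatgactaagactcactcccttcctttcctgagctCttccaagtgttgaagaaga
The start base is A in Casp8, G in Cflar and Casp6 and C in Casp1. Over the 32851 windows of the RefSeq table, 34.4% start with A, 35.6% with G, 16.3% with C and 13.7% with T. Of 9 windows for the 8 genes (Casp4 has 2, whose starts lie close together), 3 start with A, 4 with G, 1 with C and 1 with T. Casp1 alone has a C at the start with at least 5 pyrimidines in a row from it, the kind of start that TOP mRNAs (5′ terminal oligopyrimidine tract) have, which 2.51% of all windows share. The annotated Casp8 start lies 7128 bases inside the GENCODE gene, and starts used in these cells were not measured.

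In the death receptor arm, Casp8 (ENSMUSG00000026029.14, GRCm38 chromosome 1, 58795374 to 58847503, plus strand, 11 merged exons) had 213 and 191 CPM in control 1 and 2, and 245, 253, 247 and 238 CPM in Cmtr1 cKO 1 to 4. All 4 Cmtr1 cKO libraries lay above both controls, as they did for 18.2% of all tested genes. The means were 202 ± 15 and 246 ± 6 CPM (SD). The log2 fold change was 0.28 ± 0.07 (SE), a rise of 21.7% (95% interval of the log2 change 0.12 to 0.44; edgeR adjusted p = 0.0309, Benjamini-Hochberg). Between 1968 and 2792 reads stand behind each value.

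Cflar (ENSMUSG00000026031.15, chromosome 1, 58711508 to 58758884, plus strand), which lies on the same strand with 36489 bases between it and Casp8, stood at 314 and 299.8 CPM in control 1 and 2, while Cmtr1 cKO 1 to 4 had 306.5, 295, 308 and 293 CPM. The groups overlapped, with means of 307 ± 10 and 300.3 ± 7.8 CPM (SD). Its log2 fold change of -0.03 ± 0.07 (SE) did not pass the test (edgeR adjusted p = 0.784), and the 95% interval of -0.18 to 0.12 holds no change as large as the estimate for Casp8.

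Casp8 and Cflar were also set against each other within each library, where the scaling of libraries cancels. This ratio was chosen after the values were seen. Casp8 had 0.677 and 0.638 reads for each Cflar read in the controls and 0.798, 0.860, 0.803 and 0.813 in Cmtr1 cKO 1 to 4. All 4 Cmtr1 cKO ratios lay above both control ratios, 0.819 ± 0.028 against 0.657 ± 0.028 (SD), 1.25-fold higher. An exact two-sided permutation test gave p = 0.0667, the smallest that 15 splits allow, and adjusted p = 0.187 over the 28 pairs that the 8 genes form. Of all other tested genes, 37% had ratios to Cflar with no overlap between the groups, 22.1% higher and 14.9% lower in Cmtr1 cKO. Among the 28 pairs 10 did not overlap, and 9 of these hold Casp8 or Casp6.

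**Figure D2:**
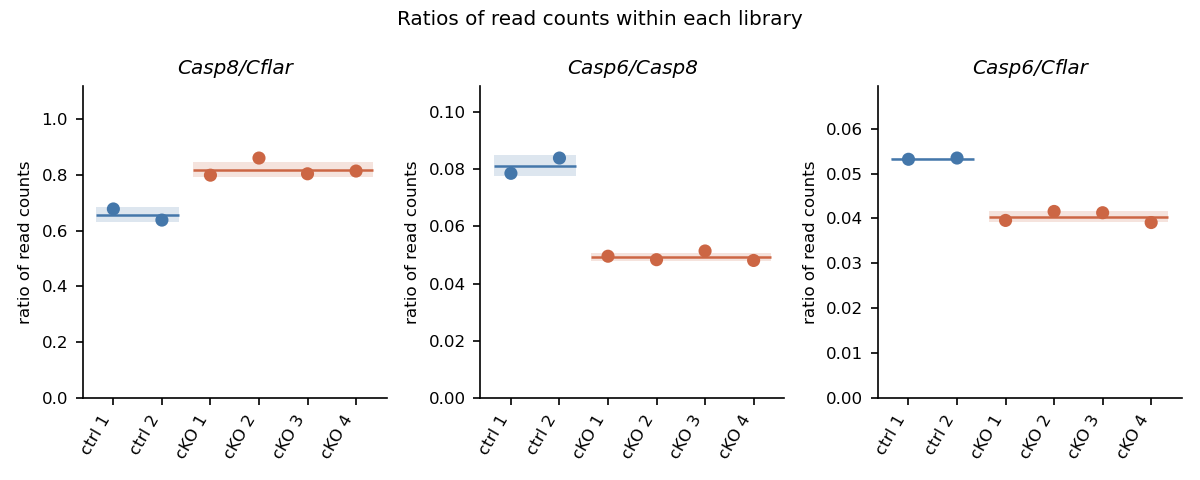
Ratios of read counts between pairs of genes within each library (y axes from 0). Points are libraries (blue, control; orange, Cmtr1 cKO), lines are group means and bands are ± SD. Casp8 per Cflar read was 0.638 and 0.677 in the controls and at least 0.798 in Cmtr1 cKO, and Casp6 per Casp8 read was 0.0785 and 0.0838 against 0.0481 to 0.0514.

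The death receptors, ligands and adaptors around Casp8 did not pass the test. Of 17 such genes 16 were tested and 0 called by edgeR, with log2 fold changes of -0.31 to 0.13. Of these 16, 3 had an unadjusted p under 0.05 in edgeR, where the share of all tested genes at that threshold was not taken. In DESeq2 0 were called. With 11.4% of all tested genes called, a count of 0 in 16 is no result about this role. Ripk1, the kinase that caspase-8 cleaves to limit necroptosis, had -0.20 ± 0.09 (SE, edgeR adjusted p = 0.144), and Cyld, a deubiquitinase of the same complex, had -0.16 ± 0.07 (SE, adjusted p = 0.151). The ubiquitin ligase genes Rbck1, Rnf31 and Sharpin had 0.02, -0.03 and 0.06, and the ubiquitin-editing gene Tnfaip3 had -0.0053. Fas and its adaptor gene Fadd, named after their values were seen, had 24.5 ± 0.8 against 26.1 ± 3.5 CPM and 15.8 ± 2.5 against 14.0 ± 1.2 CPM (SD).

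Among the executioners, Casp6 (ENSMUSG00000027997.9, chromosome 3, 129901425 to 129914103, plus strand, 8 merged exons) stood at 16.7 and 16.0 CPM in control 1 and 2, while Cmtr1 cKO 1 to 4 had 12.1, 12.2, 12.7 and 11.4 CPM. Both controls lay above all 4 Cmtr1 cKO libraries. The means were 16.4 ± 0.5 and 12.1 ± 0.5 CPM (SD). The log2 fold change was -0.43 ± 0.12 (SE), so Casp6 stood at 0.740 of its control level (95% interval of the log2 change -0.70 to -0.17; edgeR adjusted p = 0.0405, Benjamini-Hochberg). With 120 to 191 reads in a library, counting alone gives an error of 9.13% in the library with the fewest reads. Groups without overlap were found for 39% of all tested genes, with 18.2% higher and 20.8% lower in every Cmtr1 cKO library than in both controls.

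The ratio of Casp6 to Casp8 reads was lower in each Cmtr1 cKO library than in both controls. The share of all tested genes whose ratio to Casp8 did not overlap between the groups was not taken. There were 0.0785 and 0.0838 Casp6 reads for each Casp8 read in the controls and 0.0496, 0.0484, 0.0514 and 0.0481 in Cmtr1 cKO 1 to 4. The mean ratio in Cmtr1 cKO was 0.608 of that in the controls on the geometric scale, with p = 0.0667 in the exact two-sided permutation test, the smallest it allows (adjusted p = 0.187 over 28 pairs). Since both genes had passed the test in opposite directions, this restates those calls in a form free of library scaling.

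Both calls depended on the libraries kept. They ended when any library other than Cmtr1 cKO 4 was left out: Casp8 then had adjusted p = 0.0862 and 0.261 without control 1 and 2 and 0.064, 0.0778 and 0.0778 without Cmtr1 cKO 1, 2 and 3, and Casp6 had 0.210, 0.201, 0.0843, 0.088 and 0.0881 (edgeR, Benjamini-Hochberg). Over all genes, 255, 193, 744, 663 and 606 were called in these fits, against 1457 with all libraries. With the share of outside-exon reads as a covariate Casp8 had a log2 fold change of 0.21 (adjusted p = 0.0955) and Casp6 -0.51 (adjusted p = 0.0999), neither called, and in DESeq2 Casp6 had adjusted p = 0.111. With Cmtr1 cKO 4 as the only Cmtr1 cKO library, a comparison added after seeing the data, Casp8 had 0.25 (adjusted p = 0.0991) and Casp6 -0.50 (adjusted p = 0.136), neither called.

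**Figure D3:**
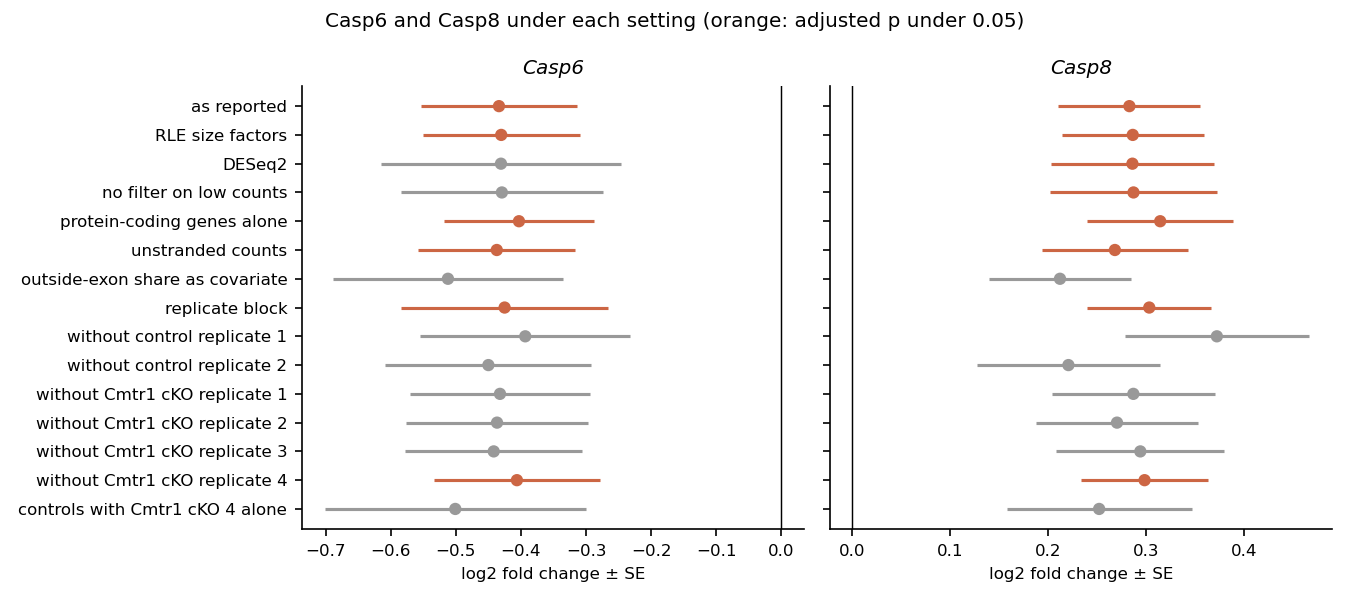
Log2 fold changes (x axis) of Casp6 and Casp8 between Cmtr1 cKO and control under each setting (y axis), with bars of ± SE. Orange marks an adjusted p under 0.05. Casp6 ran from -0.51 to -0.39 and Casp8 from 0.21 to 0.37, so the direction was the same in each of the 14 alternatives shown while the call was not.

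In the mitochondrial arm, Apaf1 (ENSMUSG00000019979.12, chromosome 10, 90989311 to 91082770, minus strand) stood at 50.5 and 53.7 CPM in control 1 and 2, while Cmtr1 cKO 1 to 4 had 51.1, 52.2, 49.7 and 52.8 CPM. The groups overlapped almost wholly. Its log2 fold change was -0.02 ± 0.08 (SE; 95% interval -0.18 to 0.15; edgeR adjusted p = 0.896). Casp9 (ENSMUSG00000028914.13, chromosome 4, 141793612 to 141815976, plus strand) stood at 16.5 and 12.8 CPM in control 1 and 2, while Cmtr1 cKO 1 to 4 had 13.2, 11.2, 12.6 and 13.3 CPM. Control 1 stood above the rest and control 2 lay among the Cmtr1 cKO libraries. Its log2 fold change of -0.22 ± 0.14 (SE) did not pass the test (95% interval -0.54 to 0.09; adjusted p = 0.317), and it was -0.01 without control 1 and -0.38 without control 2.

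Cytochrome c and the mitochondrial proteins that relieve caspase inhibition gave 0 calls of 3 genes in edgeR, and also 0 at an unadjusted p under 0.05 and 0 in DESeq2. Diablo had a log2 fold change of 0.02, Cycs (cytochrome c) 0.08 and Htra2 0.09. Of 5 inhibitors of apoptosis 1 was higher and 0 lower. With 11.4% of all tested genes called, this count and the 0 of 3 above are no result about these roles. Birc5 (survivin, also a mitotic protein) rose from 0.593 ± 0.151 to 1.92 ± 0.53 CPM (SD), a log2 difference of 1.67 ± 0.42 (SE, edgeR adjusted p = 0.0295), at a level of few reads. The call ended without control 1 or 2 or Cmtr1 cKO 1 or 2 (adjusted p = 0.132, 0.223, 0.0686 and 0.051), in DESeq2 (adjusted p = 0.0532) and with the outside-exon share as a covariate (adjusted p = 0.205). The direct caspase inhibitor Xiap had 131 ± 13 against 119 ± 4 CPM (SD, adjusted p = 0.232). Birc2, Birc3 and Birc6 had log2 fold changes of -0.15, -0.09 and 0.14, and none was called.

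The caspase of the PIDDosome, Casp2 (ENSMUSG00000029863.13, chromosome 6, 42264985 to 42282508, plus strand), an initiator known for acting on the p53 pathway, stood at 73.9 and 73.0 CPM in control 1 and 2, while Cmtr1 cKO 1 to 4 had 73.6, 82.3, 80.3 and 76.1 CPM. Cmtr1 cKO 1 lay between the controls and the other 3 lay above them. The log2 fold change of 0.09 ± 0.07 (SE; 95% interval -0.08 to 0.25) did not pass the test (edgeR adjusted p = 0.452). Pidd1, the scaffold of the PIDDosome, had 3.89 ± 0.68 and 5.75 ± 0.77 CPM (SD), a log2 fold change of 0.57 ± 0.22 (SE, adjusted p = 0.112). Cradd, the adaptor between Pidd1 and caspase-2, had -0.09 ± 0.21 (SE).

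Of the inflammatory caspases, Casp1 (ENSMUSG00000025888.5, chromosome 9, 5298517 to 5307265) and Casp4 (ENSMUSG00000033538.13, chromosome 9, 5308828 to 5336783) are neighbours on the plus strand, 1562 bases apart, and share no exon bases in GENCODE vM21. Casp1 stood at 4.81 and 2.91 CPM in control 1 and 2, while Cmtr1 cKO 1 to 4 had 4.35, 4.81, 5.61 and 4.90 CPM. For Casp4 these values were 4.37 and 1.85 CPM, and 3.15, 4.35, 5.29 and 3.87 CPM. In both genes control 2 was the lowest of the 6 libraries, Cmtr1 cKO 3 was the highest, and control 1 lay among the Cmtr1 cKO libraries.

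Their log2 fold changes were 0.34 ± 0.25 and 0.40 ± 0.33 (SE), with 95% intervals of -0.20 to 0.87 and -0.32 to 1.12, and neither passed the test (edgeR adjusted p = 0.374 and 0.439). The controls decided these values: without control 1 they were 0.76 and 1.17, and without control 2 they were 0.04 and -0.06, none called. Casp4 rested on 19 reads in control 2. The 9 myeloid markers, a cell type known for inflammatory caspases, summed to 22.2 CPM in control 1, 6.99 CPM in control 2 and 6.37 to 9.07 CPM in Cmtr1 cKO, with Lyz2 at 11.2 CPM in control 1 and 2.33 CPM in control 2. In Cmtr1 cKO Lyz2 had 1.12 to 2.43 CPM (log2 fold change -1.82, edgeR adjusted p = 0.0573, not called). Csf1r had 3.32 CPM in control 1, 0.68 CPM in control 2 and 0.09 to 0.45 CPM in Cmtr1 cKO. Tyrobp, Spi1, Fcer1g and Adgre1 were also higher in control 1 than in control 2, on few reads. Cd68 and Itgam showed no such gap. Cd68 had 1.92 and 1.94 CPM in the controls and a mean of 2.57 CPM in Cmtr1 cKO. Itgam had 1.22 and 0.97 CPM and a mean of 1.24 CPM. Cd14 had no read in either control. The part of myeloid RNA in the Casp1 and Casp4 values was not tested.

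Of 16 inflammasome genes 9 were tested, and 0 were higher and 1 lower. Against 4.66% and 6.77% of all tested genes, these counts are no result about this role. Naip2, a sensor that recruits Nlrc4, fell from 7.44 ± 0.36 to 4.13 ± 0.90 CPM (SD), and its log2 fold change was -0.85 ± 0.22 (SE, edgeR adjusted p = 0.0304). It belongs to a family of close paralogs, so its uniquely mapped count is uncertain. The call ended with the outside-exon share as a covariate (log2 fold change -0.56, adjusted p = 0.313) and without control 1 or 2 or Cmtr1 cKO 1 or 2 (adjusted p = 0.181, 0.173, 0.0698 and 0.0774). The adaptor gene Pycard (ASC) had a log2 fold change of -0.08, Gsdmd (gasdermin D) 0.17, Aim2, a DNA sensor, 0.13, the Nlrp1 inhibitors Dpp8 and Dpp9 0.09 and -0.15, and Card9 0.42 ± 0.17 (SE, adjusted p = 0.118). The 7 genes that were not tested for low counts include Nlrp3 and the cytokine genes Il1b and Il18.

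**Figure D4:**
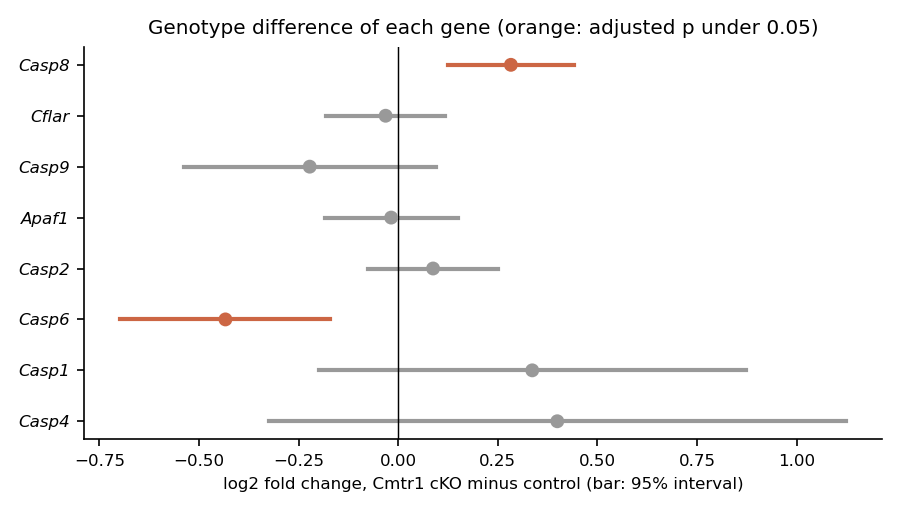
Log2 fold changes of the 8 genes (Cmtr1 cKO minus control, x axis) with 95% intervals from edgeR. Orange marks genes with an adjusted p under 0.05. The intervals of Casp8 (0.12 to 0.44) and Casp6 (-0.70 to -0.17) leave out 0, and those of Casp1 and Casp4 are the widest.

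The list of 12 caspase substrates and effectors also holds the paracaspase gene Malt1 and its partner Bcl10. Of these 12 genes 1 was higher (Acin1) and 1 lower (Bcl10), against 4.66% and 6.77% of all tested genes. In the same edgeR test 5 had an unadjusted p under 0.05. The share of all tested genes at that threshold was not taken, so this count cannot be read as an excess. One of these 5, Bid, a BCL2 family protein that caspase-8 cleaves, named after its values were seen, had 15.5 ± 0.5 against 12.2 ± 0.2 CPM (SD) and did not pass the test (log2 fold change -0.34 ± 0.12, SE, edgeR adjusted p = 0.0821). Acin1 (acinus, a nuclear protein that caspases cleave during chromatin condensation and that also acts in splicing) rose from 383 ± 2 to 501 ± 33 CPM (SD), and its log2 fold change was 0.39 ± 0.08 (SE, edgeR adjusted p = 0.0137). It stayed called at 0.26 with the outside-exon share as a covariate, and was not called with either control left out (adjusted p = 0.117 and 0.135). Bcl10, which links antigen receptors to the paracaspase MALT1, fell from 48.7 ± 0.6 to 38.9 ± 3.0 CPM (SD), a log2 fold change of -0.32 ± 0.09 (SE, adjusted p = 0.0395). With that covariate it had -0.39 and was not called (adjusted p = 0.0604), and the call also ended in DESeq2 (adjusted p = 0.0682) and without control 1 or 2 or Cmtr1 cKO 1, 2 or 3 (adjusted p = 0.181, 0.248, 0.0926, 0.072 and 0.0607). Malt1 had a log2 fold change of -0.17, Rock1, a kinase of membrane blebbing, -0.04, Parp1, a DNA repair enzyme cleaved in apoptosis, -0.01 and Panx1, a membrane channel that caspases open, -0.20, none called. Over all 55 pathway genes beside the 8, 47 were tested, 2 were higher and 2 lower, with a median log2 fold change of -0.04 against -0.00047 over all genes tested. Against the 11.4% of all tested genes called, these 4 calls are no result about the pathway.

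**Figure D5:**
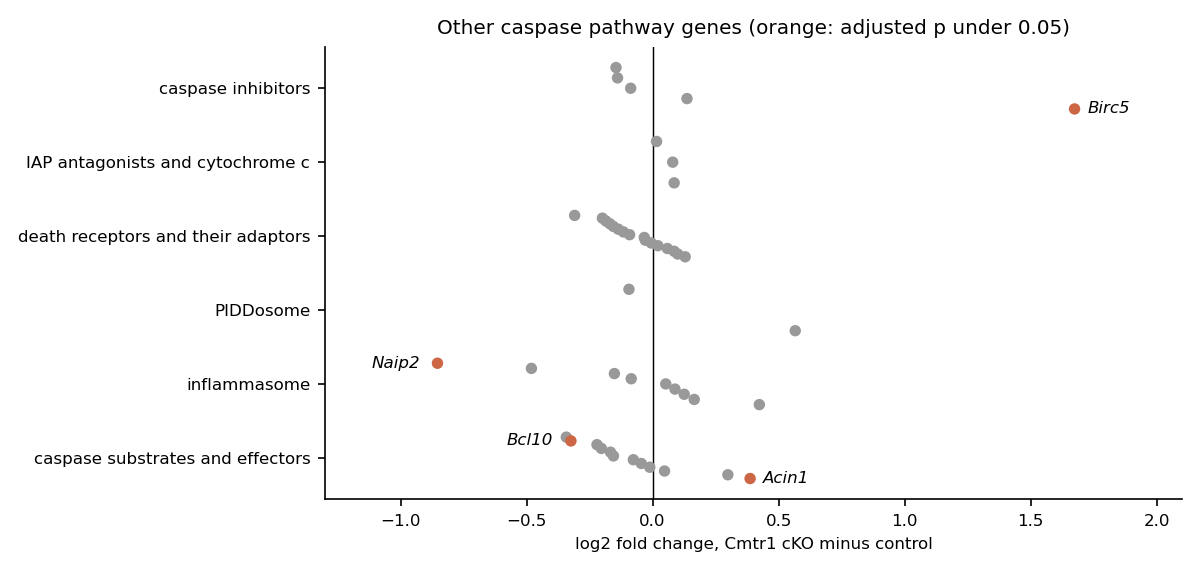
Log2 fold changes (Cmtr1 cKO minus control, x axis) of the 47 tested genes of the caspase pathway beside the 8, by role (y axis; position within a role has no meaning). Orange marks an adjusted p under 0.05, which Birc5 (1.67), Naip2 (-0.85), Acin1 (0.39) and Bcl10 (-0.32) reached.

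Levels between genes were compared as CPM per kilobase of merged exons of all annotated transcripts, a length that need not be that of the transcripts used in these cells. In the controls Casp8 had the highest level at 69.8 ± 5.3 CPM per kilobase, followed by Cflar at 24.2 ± 0.8, Casp2 at 10.4 ± 0.1, Apaf1 at 5.77 ± 0.25, Casp6 at 2.93 ± 0.09, Casp9 at 2.82 ± 0.50, Casp1 at 2.58 ± 0.90 and Casp4 at 0.838 ± 0.482 (SD). The ranges of Casp6, Casp9 and Casp1 overlapped, so their order in the controls is not set by these libraries. In Cmtr1 cKO the 4 highest kept this order, at 84.9 ± 2.2, 23.7 ± 0.6, 11.1 ± 0.6 and 5.70 ± 0.15 CPM per kilobase. Casp1 followed at 3.28 ± 0.35, Casp9 at 2.42 ± 0.19, Casp6 at 2.17 ± 0.09 and Casp4 at 1.12 ± 0.24 (SD). There Casp1 (2.91 to 3.75) lay above Casp9 (2.16 to 2.57) in level per kilobase, while Casp9 and Casp6 (2.05 to 2.27) overlapped.

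The tested genes whose log2 CPM followed the called genes most closely over the 6 libraries were listed by Pearson correlation, as a description over libraries that share the genotype difference. For Casp8 they were Gm42732 (r = 0.999), Txk (r = 0.997), which encodes a T cell kinase of the Tec family, and Ulbp1 (r = 0.997), which encodes a ligand of the receptor NKG2D. For Casp6 they were Cnst (r = 0.995), Gm23639 (r = 0.994) and Hnrnpa1 (r = 0.993), which encodes a splicing regulator. Txk went from 180.1 to 233 CPM and Hnrnpa1 from 325 to 245 CPM, in group means.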

How the data were processed

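Each deposited file holds raw read counts per gene of 1 library, as STAR writes them. Per the submitters' processing notes, the authors used STAR 2.5.2b and edgeR with mm10/GRCm38; no source used here names the annotation behind the counts. The column for the sense strand of each gene was analysed, which held 5.57 (Cmtr1 cKO 3) to 22.7 (control 2) times the reads of the opposite strand. Rows that name no gene (52.1% to 62.0% of reads) were left out. GENCODE vM21 (GRCm38) gave symbols for 46488 of 46983 identifiers (98.9%, versions removed). STAR counts only reads that map to 1 place and 1 gene.

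Genes were kept by filterByExpr, scaled by TMM and tested with glmQLFit (robust) and glmQLFTest of edgeR 4.0.16 (R 4.3.3), with genotype as the only term and Benjamini-Hochberg adjustment over 12748 genes. The biological coefficient of variation was 9.59%. The SE is the size of the log2 fold change divided by the square root of F. Counting errors cover counting alone, because PCR copies cannot be told from separate molecules. The code was tested on simulated data. The 8 genes, the pathway list (55 genes after items that are not reported here), the markers and the naming rule were chosen with earlier results of these data known. All 8 genes, each called pathway gene and up to 6 others per role by mean CPM were named, with the 3 genes most correlated with each called member. Alternatives were RLE size factors, DESeq2 1.42.0, no filter, protein-coding genes, unstranded counts, a covariate, the replicate block and each library left out. The covariate was the share of outside-exon reads, which includes reads on the opposite strand of exons. The controls with Cmtr1 cKO 4 alone were a further alternative, added after seeing the data.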

Additional observations from a re-analysis of the deposited data

How the results depend on the processing

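The direction of Casp8 and Casp6 was the same under all 14 alternatives, and Casp8 was called in 7 and Casp6 in 5 of them. Over the single libraries left out, Casp8 ran from 0.22 to 0.37 and Casp6 from -0.45 to -0.39 on the log2 scale. Casp6 was not called in DESeq2 (-0.43), without a filter (-0.43, adjusted p = 0.0577), with the covariate (-0.51) or in Cmtr1 cKO 4 against the controls (-0.50, adjusted p = 0.136), a comparison in which the lone library is assumed to vary like the controls. Casp8 was not called with the covariate (0.21) or in that comparison (0.25, adjusted p = 0.0991). Of the genes that were not called, Apaf1 changed sign with protein-coding genes alone (0.014), the covariate (0.020) and Cmtr1 cKO 4 alone (0.036), and with 1 library left out it ran from -0.052 to 0.039. Cflar ran from -0.052 to 0.012 and Casp4 from -0.063 to 1.17 with 1 library left out.

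Genes called numbered 2272 without a filter, 666 with the covariate, 4842 with the replicate block, 717 with Cmtr1 cKO 4 alone and 193 to 3880 with 1 library left out, against 1457. Of the 8 genes 1 was called in DESeq2 and 1 without a filter, 0 with the covariate, 0 with Cmtr1 cKO 4 alone, and 0 to 2 with 1 library left out. Pathway genes called numbered 2 in DESeq2, 2 with the covariate, 16 with the replicate block, 2 with Cmtr1 cKO 4 alone and 0 to 9 with 1 library left out, against 4. The replicate numbers are shared by 2 pairs only and nothing in the labels says that they pair libraries. Deviations of control 1 correlated with those of Cmtr1 cKO 1 at 0.125 and of Cmtr1 cKO 2 at 0.131. With the replicate block Casp8 had 0.30 and Casp6 -0.43, both called, from a fit in which Cmtr1 cKO 3 and 4 have no partner. The genotype difference there rests on the 2 pairs alone. That fit has nearly as many terms as libraries, so its calls, which are counted among those above, are uncertain. The log2 difference of the Casp8 to Cflar ratio was 0.32, and 0.27 to 0.36 with 1 library left out. Casp1 and Casp4, with 30 and 19 reads in control 2, allow only wide intervals.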

Other observations

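Read ratios did not overlap between the groups in 10 of the 28 pairs. For ratios to Cflar, 37% of all other tested genes had no overlap. Against such a share, a lack of overlap in 1 pair is no result about that pair. Of the 10 pairs, 1 held neither Casp8 nor Casp6. It was Casp1 to Casp9, an inflammatory caspase against the apoptosome's caspase, chosen after its values were seen, with 0.291 and 0.227 Casp1 reads for each Casp9 read in the controls and 0.329, 0.427, 0.445 and 0.368 in Cmtr1 cKO 1 to 4 (p = 0.0667 in the exact two-sided permutation test, the smallest it allows; adjusted p = 0.187 over 28 pairs).

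In the RefSeq windows around the starts (300 bases, 250 before and 50 after), 3 short motifs were searched on both strands. The GC box GGGCGG was found in 4 of the 9 windows (Casp2, Casp6, Casp9 and Apaf1), and 35.7% of all windows hold it. The CCAAT box was found in 2 (Casp2 and Casp8), against 37.4% of all windows, and TATAAA in 1 (Cflar), against 13.6%. With both strands searched, matches to GGGCGG and CCAAT can share bases, and a match is a description of the letters, not of a bound factor.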
